A study of Neogale vison with 6 samples.

Results

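The genes examined here maintain, write or remove 5-methylcytosine in DNA. They are CDCA7, HELLS, UHRF1, DNMT1, DNMT3A, DNMT3B, TET1, TET2 and TET3. All 9 symbols were found once each in the table of read counts, out of 24526 genes, and 8 of the 9 had enough reads to be tested. Mv1Lu is an established epithelial line from mink lung. RNA-seq covered 3 libraries of untreated cells (control) and 3 libraries of cells subjected to cholesterol depletion (CD). CD lasted 16 h and combined 50 μM lovastatin, a statin that inhibits HMG-CoA reductase, with 50 μM mevalonate in medium with 10% LPDS, which is fetal calf serum poor in lipoproteins. The statin, the mevalonate and the change of serum cannot be told apart in this design, and the labels do not say whether the replicates came from separate cultures, so the errors may be partly technical.

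In vertebrates, DNA methylation is copied when DNA is replicated. UHRF1 binds hemimethylated CpG sites behind the replication fork and recruits DNMT1, the methyltransferase that restores the mark on the new strand. CDCA7, a zinc finger protein, brings the nucleosome remodeler HELLS to chromatin, so that methylation can be maintained within compacted DNA. Mutations of CDCA7, HELLS, ZBTB24 or DNMT3B cause a syndrome of immunodeficiency and unstable centromeres. DNMT3A and DNMT3B methylate sites anew, and the TET dioxygenases oxidise 5-methylcytosine, which leads to its removal. CDCA7, UHRF1, HELLS and DNMT1 are known as genes of proliferating cells, with transcription that peaks around the entry into S phase.

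The genes on the maintenance side were lower after CD, in the order CDCA7, UHRF1, HELLS and DNMT1. DNMT3B was lower and DNMT3A was higher. TET2 and TET3 differed more among the CD libraries than between the groups, and TET1 was barely detected. Among the 8 tested genes, 5 were called lower and 1 higher in the quasi-likelihood test of edgeR at an FDR under 0.05, while 22.9% of the 12148 tested genes were called lower and 24.8% higher. The 3 CD libraries lay on one side of the 3 control libraries for 6 of the 8 genes, against 58.0% of all tested genes. In either direction, 6 of the 8 were called, against 47.7% of all tested genes, and 2 of the 8 (CDCA7 and UHRF1) were called and at least 8-fold lower, against 0.486%. The set of 9 was chosen by earlier values of this same contrast, in particular the low fold change of CDCA7, so nothing is read from these calls, which are no independent test, and the differences of the 9 genes are given as a description, with standard errors and without p-values. Expression is given as CPM, the read count of a gene set against the reads on all genes of its library after TMM scaling. A value written with ± is the mean and SD of the 3 libraries of a group (n = 3). CPM does not account for the length of a gene and is compared here between libraries and not between genes.

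**Figure D1:**
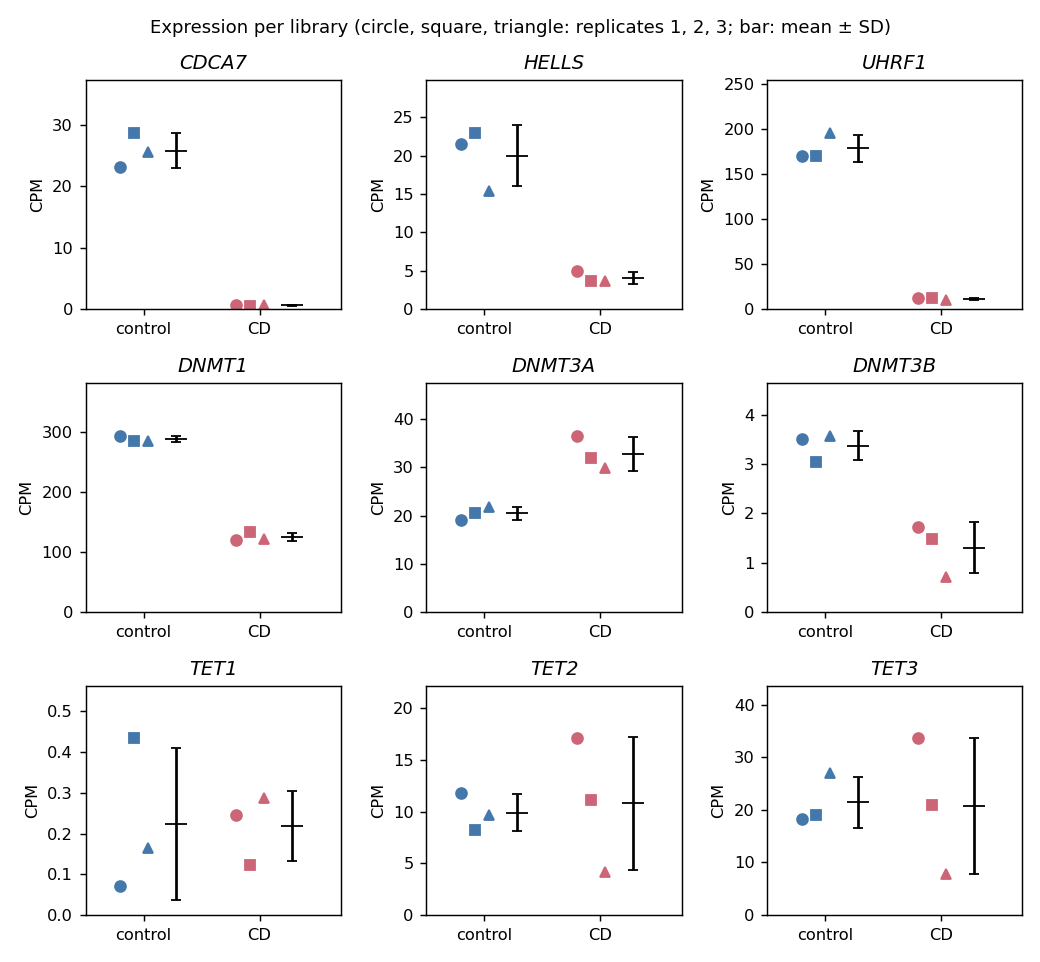
Expression of the 9 genes in each library, in CPM on linear axes that start at 0 (blue, control; red, CD; circle, square and triangle for replicates 1, 2 and 3), with the mean ± SD of 3 libraries beside the points. CDCA7, UHRF1, HELLS, DNMT1 and DNMT3B lie lower in all 3 CD libraries, DNMT3A lies higher, and the CD libraries of TET2 and TET3 spread over both sides of the control.

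Expression of CDCA7 (ENSNVIG00000008173) across control replicates 1 to 3 was 23.1, 28.7 and 25.5 CPM, and across CD replicates 1 to 3 it was 0.676, 0.552 and 0.648 CPM. Every CD library was far below every control library, with a coefficient of variation of 10.9% in the control and 10.4% in CD. In reads, this was 322, 397 and 463 against 11, 9 and 9. With 9 to 11 reads, counting error alone is wider than the spread seen in CD, so that spread is not a measure of precision. The highest CD value, 11 reads, has a 95% Clopper-Pearson interval from 0.355 to 1.27 CPM, here without TMM scaling, and the lowest control value one from 20.3 to 25.3 (counting error only). The log2 fold change was -5.35 (standard error 0.22), or 40.7-fold lower. Its rank was 4, counted from the lowest of the 12148 tested genes, between ADAMTS15 (-5.58) and ANGPTL4 (-5.07). With each library left out in turn it stayed between -5.42 and -5.26.

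The genes most like CDCA7 were sought by the root mean square difference of log2 CPM, centred on the mean of each gene, over the 6 libraries. They were ANGPTL4 (0.177), ADAMTS15 (0.265), CCRL1 (0.323), RPRM (0.337) and UNG (0.369). ANGPTL4, an inhibitor of lipoprotein lipase, was at 225 ± 12.2 CPM in the control and 6.70 ± 0.565 CPM in CD. UNG, the glycosylase that removes uracil from DNA, was the sole gene among these 5 that is also in the list of G1/S genes described below. The likeness rests on the distance between the 2 groups, so genes of equal fold change are close by construction.

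UHRF1 (ENSNVIG00000008319) reached 170, 171 and 196 CPM in the 3 control libraries and 12.2, 12.1 and 10.2 CPM in the 3 CD libraries, each in the order of the replicates. The groups lay far apart compared with the spread within either of them (15.5-fold lower in CD; log2 fold change -3.96, standard error 0.14). Its rank was 13 from the lowest of all tested genes, next to CDT1 (-3.96) and near MCM2 (-3.93), which license origins of replication. HELLS (ENSNVIG00000001971) was at 21.6, 23.0 and 15.4 CPM in the control and at 4.98, 3.62 and 3.60 CPM in CD. Control replicate 3 was the lowest control library, yet it was well above the highest CD library. The log2 fold change was -2.29 (standard error 0.22), or 4.89-fold lower.

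DNMT1 (ENSNVIG00000023752), with 13222 control and 5811 CD reads, had the most reads of the 9 genes and the smallest coefficient of variation. Its values were 294, 285 and 285 CPM in the control and 120, 133 and 122 CPM in CD, with coefficients of variation of 1.80% and 5.65%. The groups did not overlap, and the difference was 2.31-fold (log2 fold change -1.20, standard error 0.10).

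The ratio of UHRF1 to DNMT1 within a library does not depend on how libraries are scaled. There were 57.9, 59.9 and 68.8 reads of UHRF1 per 100 reads of DNMT1 in the 3 control libraries, and 10.2, 9.14 and 8.30 after CD. The control ratio was 6.74 times that of CD, with no overlap. For CDCA7 against HELLS, its remodeling partner, the ratio was 107, 125 and 165 reads per 100 before and 13.6, 15.3 and 18.0 after CD, or 8.48 times higher in the control. HELLS against DNMT1 moved less, from 6.94 ± 1.37 to 3.28 ± 0.775 reads per 100. The transcripts of one maintenance pathway thus did not decline in proportion to each other.

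De novo methyltransferases went in opposite directions. DNMT3A (ENSNVIG00000012095) was at 19.1, 20.5 and 21.8 CPM in the control and at 36.6, 32.0 and 29.8 CPM in CD. All CD libraries were above all control libraries (1.60-fold higher; log2 fold change 0.68, standard error 0.14). DNMT3B (ENSNVIG00000018344) was at 3.51, 3.04 and 3.58 CPM in the control and at 1.72, 1.47 and 0.720 CPM in CD, that is 49, 42 and 65 against 28, 24 and 10 reads. The groups did not overlap, although CD replicate 3 was well below the other CD libraries, and the log2 fold change was -1.35 (standard error 0.30). Without CD replicate 3 this value was -1.12, and with CD replicate 1 left out instead it was -1.58. Per 100 reads of DNMT3A there were 18.4, 14.8 and 16.5 reads of DNMT3B in control cells and 4.70, 4.60 and 2.42 after CD, a 4.23-fold difference.

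For TET3 (ENSNVIG00000001508), control replicates 1 to 3 had 18.3, 19.01 and 27.0 CPM, and CD replicates 1 to 3 had 33.6, 21.0 and 7.78 CPM. TET2 (ENSNVIG00000005706) was at 11.8, 8.24 and 9.64 CPM in the control and at 17.1, 11.2 and 4.18 CPM in CD. For both genes CD replicate 1 was above and CD replicate 3 below every control library. The log2 fold changes of the groups were -0.042 (standard error 0.41) for TET3 and 0.13 (standard error 0.40) for TET2, which with this spread does not show that the levels were equal. Without CD replicate 3 they were 0.31 and 0.48, and TET2 then counted among the genes called higher. Without CD replicate 1 they were -0.56 and -0.35. A direction for TET2 and TET3 therefore rests on single libraries. TET1 (ENSNVIG00000012553) had 1, 6 and 3 control reads and 4, 2 and 4 CD reads, 10 in each group, and was too low to be tested.

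The spread of TET2 and TET3 among the CD libraries was larger than that of nearly all genes. The SD of log2 CPM over the 3 CD libraries was 1.07 for TET3 and 1.02 for TET2, at percentiles 99.5 and 99.3 of the tested genes, whereas it was 0.127 for CDCA7 and 0.0803 for DNMT1. For CDCA7, with 9 to 11 reads per CD library, the prior count of 2 added before taking log2 makes this SD smaller. From CD replicate 1 to CD replicate 3, log2 CPM differed by -2.09 for TET3, -1.999 for TET2 and -1.12 for DNMT3B. Over all tested genes the median of this difference was -0.0048, and 8.76% of them were lower by at least 1. Within CD both TET genes moved together, since TET2 stayed at 50.8, 53.2 and 53.7 reads per 100 reads of TET3 in CD replicates 1, 2 and 3. The ratio was less steady in the control, at 64.7, 43.3 and 35.7 in the order of the replicates. CD replicate 3 also had more unmapped reads than the other CD libraries (9.37% against 3.54% and 4.33%) and more reads outside annotated genes (25.4% against 21.9% and 21.6%). In control replicates 1, 2 and 3, 18.4%, 13.6% and 4.25% of reads were unmapped and 23.4%, 22.3% and 19.5% lay outside annotated genes. The part of these features in the spread was not tested. Leaving out this library changed the log2 fold changes of CDCA7, UHRF1, HELLS, DNMT1 and DNMT3A by less than their standard errors.

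**Figure D2:**
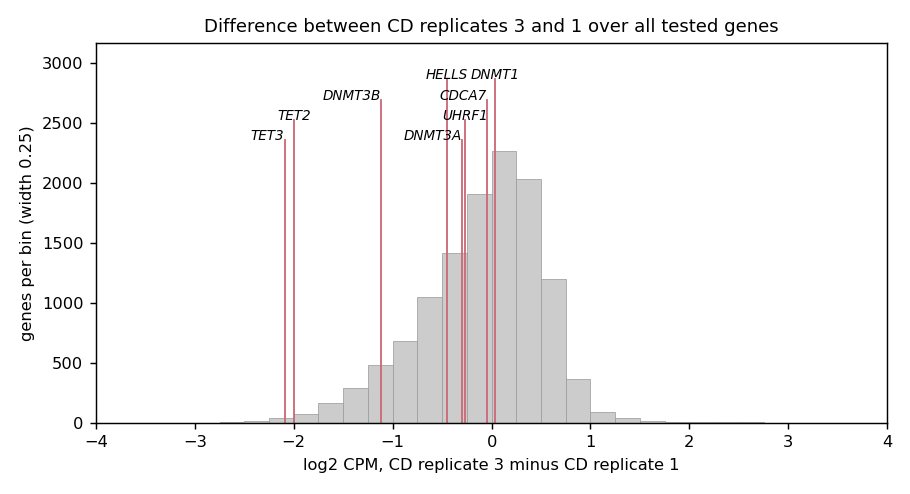
Number of tested genes (y axis, bins of 0.25) by the difference in log2 CPM between CD replicate 3 and CD replicate 1 (x axis), with red lines for 8 genes of DNA methylation. TET3 (-2.09) and TET2 (-1.999) stand in the far left tail, and DNMT1 (0.032) and CDCA7 (-0.050) near the center.

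Genes that work with CDCA7, HELLS, UHRF1 and DNMT1 were followed as a list of 19, of which 15 were found and tested. Of these, 8 fell and 2 rose at an FDR under 0.05 in edgeR (22.9% and 24.8% of all tested genes), and the median log2 fold change was -0.48, beside 0.057 over all tested genes. The largest decreases were those of CHAF1A and CHAF1B, subunits of the chromatin assembly factor that loads histones on new DNA (log2 fold changes -3.32 and -2.93, FDR 9.75e-08 and 3.60e-06), SUV39H1, which methylates lysine 9 of histone H3 (-2.49, FDR 4.71e-07), and LIG1, the ligase that joins Okazaki fragments and that UHRF1 binds (-2.09, FDR 1.24e-06). CDCA7L, the paralog of CDCA7, fell from 44.2 ± 3.88 to 15.1 ± 0.576 CPM (-1.55 on the log2 scale, FDR 1.37e-05, edgeR). CDCA7 thereby went from 58.3 ± 1.98 to 4.14 ± 0.388 reads per 100 reads of its paralog. PCNA, the sliding clamp that tethers DNMT1, fell from 187 ± 17.7 to 75.6 ± 9.79 CPM (log2 fold change -1.31, FDR 3.40e-05, edgeR), and DNMT1 stayed at 155 ± 16.3 and 168 ± 29.3 reads per 100 reads of PCNA in control and CD, which is within the spread.

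Other partners did not pass the test. ZBTB24, the transcription factor that activates CDCA7 in other cells, was at 12.8 ± 0.786 CPM in the control and 12.2 ± 2.02 CPM in CD. The difference of -0.069 on the log2 scale was within its standard error of 0.18 (FDR 0.77, edgeR). UHRF2, the paralog of UHRF1, was at 6.82 ± 0.0455 and 8.29 ± 1.96 CPM, a difference of 0.29 on the log2 scale (standard error 0.21; FDR 0.28, edgeR). UHRF1 went from 2627 ± 233 to 142 ± 20.9 reads per 100 reads of UHRF2. USP7, a deubiquitinase that stabilises UHRF1 and DNMT1, had a log2 fold change of -0.16 (FDR 0.28, edgeR). The genes that rose were CBX1, a heterochromatin protein (0.47, FDR 0.0150), and HDAC2, a histone deacetylase (0.46, FDR 0.0120). Neither call held without control replicate 1 or without control replicate 3, and that of CBX1 was also lost without CD replicate 2.

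**Figure D3:**
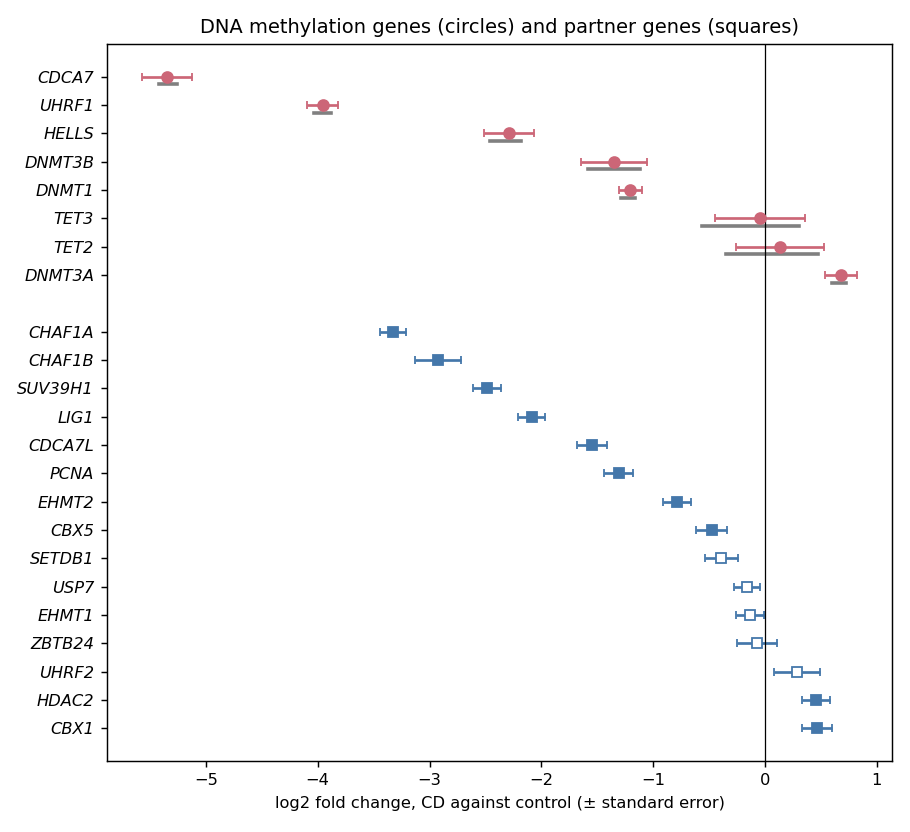
Log2 fold changes of CD against control with their standard errors (x axis) for 8 genes of DNA methylation (circles, with grey lines for the range when 1 library is left out) and 15 partner genes (squares, open where not called). CDCA7 (-5.35) and UHRF1 (-3.96) lie to the left of all partners, the lowest of which is CHAF1A (-3.32), while ZBTB24 (-0.069) and UHRF2 (0.29) lie near 0.

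Markers of the cell cycle moved in the same direction as the maintenance genes. Of 25 tested G1/S genes, 23 fell and 0 rose in CD (edgeR, FDR under 0.05), against 22.9% and 24.8% of all tested genes. Their median log2 fold change was -2.61. Of 20 tested G2/M genes all 20 fell and 0 rose, and the median was -2.01. The call of AURKA (-0.36) was lost without control replicate 1, 2 or 3 or without CD replicate 2, and the other 19 held in each alternative. No gene of either list was higher at an unadjusted p under 0.05 (0 and 0), and DESeq2 also called 0 higher in both. The summed CPM of the G1/S list was 3095 to 3303 in control cells and 723 to 757 after CD, or 4.29 times higher in the control, and that of the G2/M list was 4.67 times higher. CDC6, UNG, CDT1 and MCM2 fell most in the first list (-4.49, -4.47, -3.96 and -3.93), and PLK1, CDC20, AURKB and ANLN in the second (-2.92, -2.79, -2.63 and -2.48). In these bulk libraries, fewer cells in S phase and less RNA per cell cannot be told apart.

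Set against the G1/S genes, the genes of DNA methylation fell into separate patterns. CDCA7 was at 74.5, 92.4 and 77.2 reads per 10000 reads of the G1/S list in the control and at 9.35, 7.49 and 8.56 in CD, so its decrease exceeded that of the summed list by 9.61-fold. UHRF1 also decreased further than the summed list, from 565 ± 25.6 to 156 ± 19.1 reads per 10000. The sum is weighted by abundant genes such as RRM1 (log2 fold change -0.45), at a mean of 239 CPM beside a sum of 723 to 757 CPM in CD. Gene by gene, the median of the list (-2.61) was below HELLS (-2.29). CDC6, UNG and CDT1 (-4.49, -4.47 and -3.96) fell at least as far as UHRF1 (-3.96), and no listed gene fell as far as CDCA7 (-5.35). The ratio of HELLS was 69.7, 74.0 and 46.7 reads per 10000 in the control and 68.9, 49.1 and 47.6 in CD, and the groups overlapped. DNMT1 decreased less than the list, and its ratio went from 910 ± 43.9 to 1691 ± 99.3. DNMT3A, which was higher in CD also in CPM, went from 64.6 ± 2.42 to 445 ± 57.3. For DNMT3B the groups overlapped, with 9.51 reads per 10000 in CD replicate 3 and 23.8 and 20.0 in the others, against 9.78 to 11.3 in the control.

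**Figure D4:**
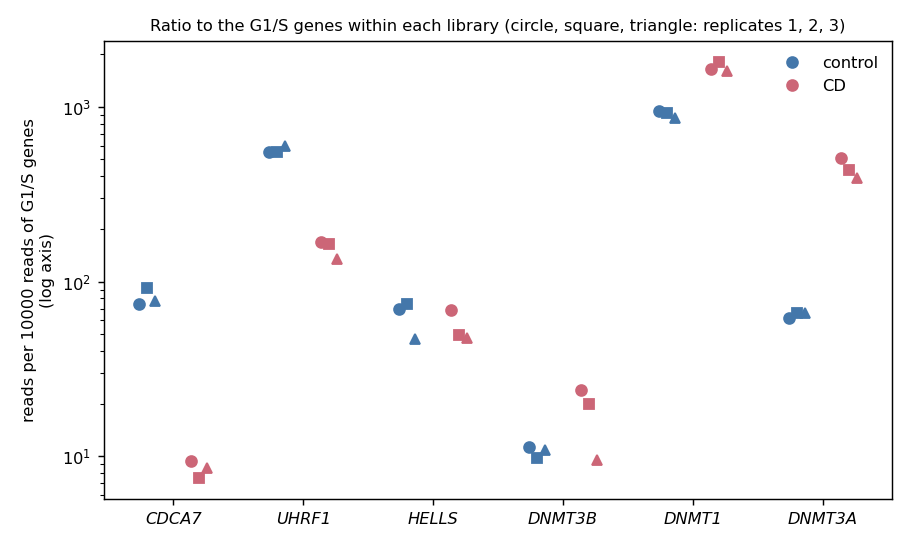
Reads of each gene per 10000 reads of the G1/S genes in the same library (log axis; blue, control; red, CD; circle, square and triangle for replicates 1, 2 and 3). The ratio is lower in CD for CDCA7 and UHRF1, overlaps between the groups for HELLS and DNMT3B, and is higher in CD for DNMT1 and DNMT3A.

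HELLS belongs to the SNF2 family of ATPases, which move or evict nucleosomes. Of 26 other members listed, 21 were tested, 4 fell and 2 rose (edgeR, FDR under 0.05; 22.9% and 24.8% of all tested genes), and the median log2 fold change was 0.029. Those that fell were RAD54L and RAD54B, which act in homologous recombination (-2.62 and -1.74, FDR 1.63e-06 and 5.05e-04), TTF2 (-0.92, FDR 0.0206) and SMARCA4, the ATPase of SWI/SNF complexes (-0.58, FDR 0.00198). HELLS, at -2.29, was lower than all of them but RAD54L. SMARCA5, the ATPase of ISWI complexes, was at 75.5, 74.4 and 62.2 CPM in the control and at 88.7, 64.2 and 59.3 CPM in CD (log2 fold change 0.0019, FDR 0.99, edgeR) and is named after its value was seen. The genes that rose were CHD6 (0.50, FDR 0.0255) and CHD7 (0.39, FDR 0.0472), both called in 1 of the 6 fits that left out a library, namely the fit without CD replicate 3. The call of TTF2 was lost without control replicate 2 or 3. The number that rose was 6 without CD replicate 3 and 0 without any 1 of control replicates 1, 2 and 3 and CD replicate 1, and the number that fell was 7 without CD replicate 1.

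Of 9 tested proteins that read methylated CpG sites, 2 rose, 2 fell and 5 did not pass the test, against 47.7% called over all tested genes. MBD2, a subunit of repressive NuRD complexes, rose from 47.3 ± 4.38 to 87.1 ± 5.96 CPM (log2 fold change 0.88, FDR 2.66e-04, edgeR), while MBD3, its counterpart in these complexes, which does not bind methylated DNA strongly in mammals, fell from 351 ± 15.5 to 221 ± 32.5 CPM (-0.67, FDR 0.00193, edgeR). MBD5 rose (0.98, FDR 0.0168), a call that was lost without control replicate 2 or 3 or CD replicate 2. The number that fell was 1 without any 1 of the 3 control libraries or of CD replicates 1 and 2. MBD4, a glycosylase that repairs mismatches at CpG sites, had a log2 fold change of 0.31 (FDR 0.25, edgeR).

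The oxidised bases made by TET enzymes are excised by TDG and replaced by base excision repair. TDG was at 53.7, 58.9 and 53.7 CPM in the control and at 68.8, 61.9 and 76.2 CPM in CD (log2 fold change 0.31, standard error 0.12), and was not called (FDR 0.0577, edgeR). Of 14 tested genes of this group, 6 fell and 2 rose (22.9% and 24.8% of all tested genes), with a median log2 fold change of -0.11. NEIL3 and XRCC1, a glycosylase and a scaffold of repair, fell by 3.26 and 1.25 on the log2 scale (FDR 1.91e-05 and 2.09e-05, edgeR), and PARP1 fell by 0.52 (FDR 0.00415). NEIL1 fell as well (-0.68, FDR 0.0259), but the call held in 1 of the 6 fits with a library left out, the one without CD replicate 3, and without any 1 control library 3 genes of the group fell. GADD45A, a stress protein linked to active demethylation, rose from 220 ± 32.1 to 586 ± 80.7 CPM (1.41, FDR 4.75e-05, edgeR), and CXXC5, which binds unmethylated CpG sites, rose as well (0.88, FDR 2.30e-04). OGT, the sugar transferase that binds TET proteins, had a log2 fold change of -0.31 (FDR 0.17, edgeR).

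Methyl groups for DNA come from S-adenosylmethionine, which is fed by the folate and methionine cycles. Of 9 tested genes, 5 fell and 1 rose (22.9% and 24.8% of all tested genes), with a median log2 fold change of -0.48. SHMT2 and MTHFD1, which supply and carry one-carbon units on folate, fell by 1.32 and 1.27 (FDR 1.18e-05 and 2.04e-05, edgeR). AHCY, which clears the inhibitory product of methylation reactions, fell from 669 ± 26.3 to 456 ± 19.8 CPM (log2 fold change -0.55, FDR 0.00204, edgeR). MAT2A, the catalytic subunit of S-adenosylmethionine synthetase, fell by 0.41 (FDR 0.00908, edgeR), whereas MAT2B, its regulatory subunit, rose by 0.61 (FDR 0.00729). The 2-oxoglutarate needed by TET enzymes is made by isocitrate dehydrogenases. Here IDH1, the cytosolic enzyme, rose from 34.6 ± 1.87 to 134 ± 6.22 CPM (1.96, FDR 1.05e-06, edgeR). Of 10 tested genes that make or use 2-oxoglutarate or follow it in the citric acid cycle, 1 rose and 3 fell. Over all tested genes, 24.8% rose and 22.9% fell. IDH3A fell by 0.52 (FDR 0.00698, edgeR), and the other decreases, of OGDH (-0.33, FDR 0.0464) and IDH3B (-0.31, FDR 0.0441), were each lost without any 1 of the 3 control libraries or without CD replicate 1. For IDH3B this was also so without CD replicate 2, and without CD replicate 3 the number of decreases in this group was 5.

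**Figure D5:**
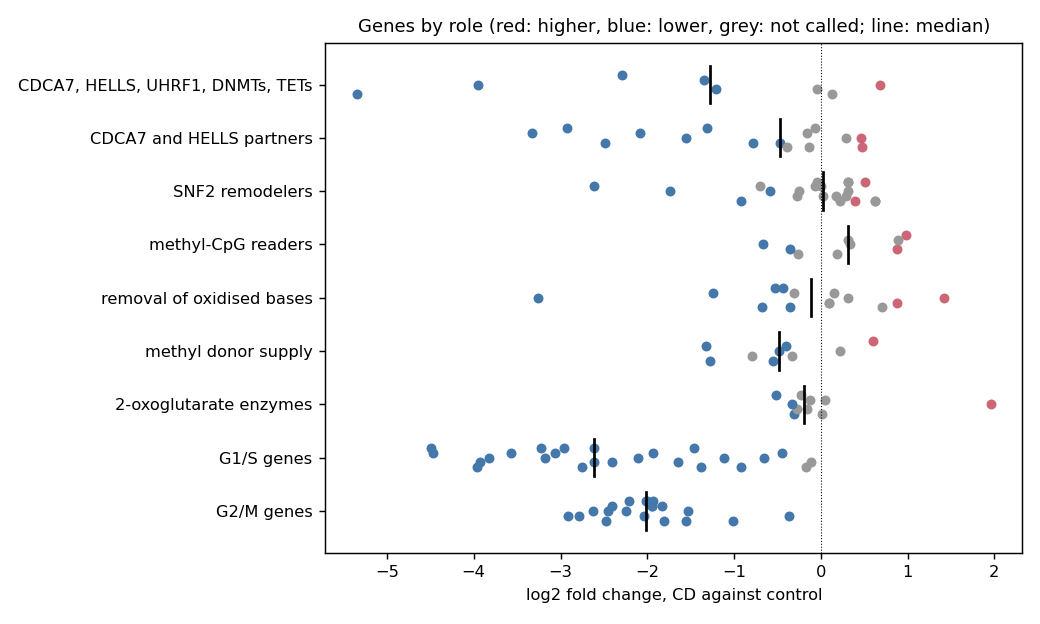
Log2 fold changes of CD against control (x axis) for the tested genes of 9 groups (y axis), with red for genes called higher, blue for genes called lower, grey for genes not called and a black line at the median of each group. The medians of the G1/S (-2.61) and G2/M genes (-2.01) lie furthest to the left, while those of the SNF2 remodelers (0.029) and methyl-CpG readers (0.31) lie near or above 0.

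The reads counted on genes numbered 13473820 to 18633764 per library. HMGCS1 and INSIG1, which respond to low sterol, rose in CD (log2 fold changes 3.43 and 1.67). Of the epithelial markers, KRT7 and KRT19 were abundant in the control, CDH1, EPCAM and CLDN7 had at most 8 reads in either group apart from 18 reads of CDH1 in CD, and the mesenchymal marker VIM was at 3690 to 4788 CPM. Of 8 lung markers found, SFTPB, SFTPC and AQP5 had 0 reads, SFTPD, FOXJ1 and NKX2-1 had at most 23 reads in either group, AGER had 103 control and 85 CD reads and was not called, and SCGB1A1 fell from 64 to 28 reads (-1.21, FDR 0.0125, edgeR). Of 5 tested epithelial markers, KRT7 and KRT19 fell (-2.50 and -1.03) and CLDN4 rose (3.55, from 27 to 326 reads), with a median log2 fold change of 0.063. The summed CPM of this list, 7734 to 8385 in the control and 1493 to 1958 in CD, was mostly KRT7. Of 8 tested mesenchymal markers (median -0.41), 4 fell and 1 rose, against 22.9% and 24.8% of all tested genes. The called markers included COL3A1 (-1.72), PDGFRB (-1.08), COL1A1 (-0.93) and CDH2 (0.74). The summed CPM of the mesenchymal list, 4388 to 4671 in the control and 4141 to 5150 in CD, was mostly VIM. Of 6 leukocyte and endothelial markers found, CD68 alone was tested and rose (1.85), while PECAM1 had 0 control reads and 11 CD reads, KDR 3 and 1, and PTPRC and CDH5 0 and 1 each. These marker genes were named after their values were seen. The part of these shifts in the results above was not tested.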

How the data were processed

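Per the labels and the methods, poly(A) RNA of 6 Mv1Lu libraries was sequenced after Nextera XT preparation, and reads were aligned to the mink assembly NNQGG.v01; the submitters' processing notes name fastp 0.20.1, STAR 2.7.2a, R 4.0.3 and DESeq2 1.30.1. The authors deposited raw read counts per gene and, for each library, normalized expression, a signal in which each count is scaled by 1 constant per library. The counting program and its use of strand are not given in the sources used here, so overlapping and antisense genes are uncertain. In the RefSeq table, of another assembly (ASM_NN_V1), HELLS overlaps a pseudogene. The 4 summary rows without a gene (unmapped, multimapping, no feature, ambiguous) held 29.3% to 47.2% of the reads of a library and were left out. The normalized values gave whole reads for 100% of 147156 values (tolerance 0.01) when paired by row, 4 rows below. Their identifiers matched the table at only 2 rows of the first library, so they served for alternatives only.

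Counts were analysed here with edgeR 4.0.16 in R 4.3.3: filterByExpr (minimum count 10, minimum total 15), TMM, glmQLFit (robust) and glmQLFTest over all 6 libraries with condition as the only term. P-values were adjusted over 12148 genes by the Benjamini-Hochberg method and called at 0.05. The standard error was the size of the log2 fold change divided by the root of F (median 0.18). The procedure was tested on simulated data with the same spread in both groups. In the real libraries the biological coefficient of variation was 0.084 in the control and 0.21 in CD, a difference that the simulation did not include. The genes and lists were chosen with earlier results of these data known. Named were the 9 genes, from each list up to 4 called, non-overlapping genes per direction with the largest change, a few further genes whatever their values, and the 5 genes most like CDCA7. Alternatives were DESeq2 1.42.0, limma 3.58.1 (voom, and log2 of normalized expression with a pseudocount of 1), other scalings and filters, an FDR of 0.01, a replicate block, each library left out, and, chosen after seeing the data, edgeR on the reads recovered from the normalized values. No sequence of these genes was used here, and the results of some listed genes are not reported here.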

Additional observations from a re-analysis of the deposited data

How the results depend on the processing

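The log2 fold changes of CDCA7, UHRF1, HELLS, DNMT1, DNMT3A and DNMT3B kept their direction in each alternative in which they were fitted (16, and 15 for DNMT3B). TET2, not called, changed sign with a replicate block (-0.034), limma-voom (-0.051) and limma on log2 of normalized expression (-0.10), and with 1 library left out it ranged from -0.35 to 0.48. For TET3 that range was -0.56 to 0.31. The cause was not tested. The number of the 9 genes called higher ranged from 1 to 2 with 1 library left out. At an FDR of 0.01, 2006 of all tested genes were higher, and in the lists 0 partners and 0 SNF2 remodelers were higher, 1 methyl-CpG reader was higher and 1 lower, 3 genes of base removal were lower, and 1 2-oxoglutarate enzyme was lower. SNF2 remodelers higher numbered 1 with DESeq2 size factors, total counts or limma on log2 of normalized expression. Methyl-CpG readers lower numbered 1 with upper quartile scaling, no filter or the replicate block, and 2-oxoglutarate enzymes lower 1 with no filter or the block. Without a filter, 1 germline gene (TDRKH) was called higher. With 1 library left out, the numbers ranged from 0 to 2 (partners higher), 0 to 6 and 3 to 7 (SNF2 remodelers higher and lower), 1 to 4 and 1 to 2 (readers higher and lower), 3 to 6 (base removal lower) and 1 to 5 (2-oxoglutarate enzymes lower). Deviations of same-numbered control and CD libraries from their group means had correlations of -0.024, -0.33 and -0.18, so no pairing by replicate number was seen. With 3 libraries per group, this cannot exclude a shared culture or batch. The block changed no call of the 9 genes. The 9 to 11 reads of CDCA7 in each CD library and the 10 reads of TET1 per group limit what can be said of their levels.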

Other observations

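Genes whose expression depends on DNA methylation in mammals were also examined. Of 16 germline genes that methylation silences in somatic cells, 12 were found and 1 passed the filter on low counts. SLC25A31 had 132 control and 104 CD reads and was not called (FDR 0.39, edgeR). The other 11 had at most 15 reads in either group, and STK31, ASZ1, TDRD1, HORMAD1 and BRDT had 0 reads in all libraries. TDRKH, a Tudor domain protein, had 1 control read and 15 CD reads, and was called higher in the fit without a filter on low counts (FDR 0.00885, edgeR). DDX4, a helicase of germ cells, had 2 and 4 reads, and MAEL 1 and 3 reads. In the other direction, TEX101 had 9 control and 3 CD reads and MOV10L1 had 8 and 4. At this depth, a difference in most of these genes was not detectable after 16 h.

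Among imprinted genes, which are expressed mainly from 1 parental copy under the control of methylation, 10 of 23 listed were tested, 3 rose and 2 fell at an FDR under 0.05 in edgeR, where 47.7% of all tested genes were called. PEG10, a gene derived from a retrotransposon, was at 84.4, 79.7 and 91.9 CPM in the control and at 14.9, 11.8 and 3.31 CPM in CD (log2 fold change -3.08, standard error 0.39, FDR 1.49e-04, edgeR). MEST fell from 8.92 ± 1.28 to 1.98 ± 0.345 CPM (mean ± SD, n = 3 each; -2.16, FDR 3.95e-05, edgeR). GNAS, GRB10 and INPP5F rose by 0.92, 0.92 and 0.82 (FDR 2.25e-04, 9.87e-05 and 0.00179, edgeR), and all 5 calls held in each of 16 alternatives. IGF2, at 826 to 1014 CPM in the control and 676 to 815 CPM in CD, was not called (-0.35, FDR 0.0502, edgeR), although 9 of 16 alternatives called it. The counts do not separate the parental copies.

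The genes next to the members in the RefSeq annotation, of another assembly of the mink genome, were looked up after the results were known. SP3, next to CDCA7, was at 16.1 ± 1.37 CPM in the control and 19.6 ± 4.60 CPM in CD (log2 fold change 0.29, FDR 0.23, edgeR). KDM4B, next to UHRF1, had a log2 fold change of 0.28 (FDR 0.12), TBC1D12, next to HELLS, one of 0.063 (FDR 0.85), and EIF3G and S1PR2, on either side of DNMT1, ones of -0.27 (FDR 0.12) and 0.96 (FDR 0.00869, edgeR). Of the 9 neighbors that were tested, S1PR2 alone passed the threshold, where 47.7% of all tested genes did.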
